A study of Mus musculus with 26 samples.

Results

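Keratinocyte cultures started from whole epidermis can carry along melanocytes, the pigment cells of the skin, and 10 genes of melanocyte identity and pigment synthesis were followed here: *Sox10*, *Mitf*, *Kit*, *Mc1r*, *Tyr*, *Tyrp1*, *Dct*, *Pmel*, *Mlana* and *Slc45a2*. They were taken by symbol from the raw counts, whatever their values, and are 10 of 56738 symbols listed and 10 of the 16893 genes tested. The RNA came from primary keratinocytes isolated from the epidermis of mice aged 2 days, cultured for 4 days at 0.06 mM CaCl2 and then left untreated (basal) or treated for 24 h with IL17A and TNFα at 20 ng/ml each, a cytokine pair used to mimic psoriatic inflammation. Cells of 5 wild-type (WT) mice and of 8 Pla2g4d-KO mice (C57BL/6NJ background, germline CRISPR deletion that includes exon 3, bred as homozygotes) were used under both conditions, which gave 26 libraries, each pooled from replicate wells of a single animal. The deletion is present in every cell of the KO cultures, so a melanocyte in them carries it as well. Basal and treated libraries with the same replicate number in their titles were taken to come from the same mouse. Sex was not recorded. Cells were not sorted, and in such bulk RNA a smaller number of melanocytes and less RNA per melanocyte cannot be told apart.

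Total counts per library lay between 42072745 and 78102858. The keratinocyte markers *Krt5*, *Krt14*, *Trp63*, *Itga6*, *Col17a1* and *Dsg3* summed to 33310 to 46610 CPM (counts scaled to library size after TMM normalization), whereas the 10 pigmentation genes summed to a median of 600 CPM in untreated WT cells. The targeted gene *Pla2g4d* was read at 1.22 to 4.63 CPM in untreated WT and 1.148 to 2.98 CPM in untreated KO cells, and at 28.6 to 65.2 and 29.2 to 59.2 CPM with cytokines. These counts cover the whole gene, including exons outside the deletion, and do not check the loss of exon 3.

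Pigment is made in melanosomes, lysosome-related organelles of the melanocyte. The transcription factor SOX10 marks the neural crest lineage and activates *Mitf*, and MITF in turn drives the genes for pigment enzymes and melanosome proteins through short E-box sequences in their promoters. Kit ligand from keratinocytes acts through the receptor KIT, and melanocortin acts through MC1R, both of which feed into MITF. Tyrosinase (*Tyr*) carries out the rate-limiting oxidation of tyrosine, dopachrome tautomerase (*Dct*) and tyrosinase-related protein 1 (*Tyrp1*) act further along the path to eumelanin, PMEL forms the fibrils on which melanin is laid down, MLANA takes part in melanosome maturation, and SLC45A2 is a melanosomal transporter needed for normal tyrosinase activity.

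RefSeq promoter windows of the GRCm38.p6 build, from 250 bases before to 50 bases after a gene's start, are shown for the enzymes *Tyr*, *Tyrp1* and *Dct* and for the receptor *Kit*, because the measurements below set the enzymes against the lineage genes. They lie at chr7:87493463-87493762, minus strand (*Tyr*), chr4:80833963-80834262, plus strand (*Tyrp1*), chr14:118052197-118052496, minus strand (*Dct*) and chr5:75574737-75575036, plus strand (*Kit*), and capitals mark the E-box letters CATGTG as read on either strand (CACATG on the other).
*Tyr* promoter: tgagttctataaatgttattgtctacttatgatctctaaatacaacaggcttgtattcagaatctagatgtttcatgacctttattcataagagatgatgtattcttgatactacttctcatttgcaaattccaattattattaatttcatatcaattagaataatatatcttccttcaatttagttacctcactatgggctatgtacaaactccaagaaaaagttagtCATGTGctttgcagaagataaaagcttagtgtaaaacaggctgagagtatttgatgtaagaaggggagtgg
*Tyrp1* promoter: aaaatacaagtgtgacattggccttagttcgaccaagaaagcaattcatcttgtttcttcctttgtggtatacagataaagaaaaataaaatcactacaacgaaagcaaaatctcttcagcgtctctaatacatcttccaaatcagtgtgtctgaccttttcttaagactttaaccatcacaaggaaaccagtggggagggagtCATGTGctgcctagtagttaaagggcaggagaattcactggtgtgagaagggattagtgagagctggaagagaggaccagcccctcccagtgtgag
*Dct* promoter: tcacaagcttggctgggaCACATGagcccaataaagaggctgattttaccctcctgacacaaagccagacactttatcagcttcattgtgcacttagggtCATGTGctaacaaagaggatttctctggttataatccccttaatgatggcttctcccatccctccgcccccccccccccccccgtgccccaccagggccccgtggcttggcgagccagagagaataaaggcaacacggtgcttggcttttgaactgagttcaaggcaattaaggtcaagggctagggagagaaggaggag
*Kit* promoter: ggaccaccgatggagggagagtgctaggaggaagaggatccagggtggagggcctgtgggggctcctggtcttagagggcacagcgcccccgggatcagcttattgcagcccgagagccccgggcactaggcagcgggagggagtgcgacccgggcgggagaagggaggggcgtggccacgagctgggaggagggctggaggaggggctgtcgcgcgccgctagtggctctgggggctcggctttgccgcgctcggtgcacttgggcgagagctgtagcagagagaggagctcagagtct
These letters began 21 bases before the start of *Tyr*, 46 before that of *Tyrp1*, and 232 and 150 before that of *Dct*. The *Mc1r* window held them at 62 and 51 bases before its start. None of the 3 windows of *Mitf* and neither of the windows of *Kit* held them. Among all 32851 promoter windows 14.2% contained the 6 letters, which overlap with no other motif searched. The related E-box CACGTG, present in 7.15% of all windows, was in none of the windows of *Tyr*, *Tyrp1*, *Dct*, *Mc1r*, *Mitf* and *Kit*. A match of letters describes the window and does not show that a factor binds there.

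In the GRCm39 build, to which the reads were mapped, *Sox10* lies on chromosome 15 from 79039108 to 79049469 and *Slc45a2* on the same chromosome from 11000803 to 11029319. *Mitf* lies on chromosome 6 (97783950 to 97998323), *Kit* on chromosome 5 (75735576 to 75817404) and *Mc1r* on chromosome 8 (124133846 to 124137483). The enzyme genes lie on chromosome 7 (*Tyr*, 87073979 to 87142720), chromosome 4 (*Tyrp1*, 80752360 to 80769956) and chromosome 14 (*Dct*, 118250202 to 118289656), *Pmel* on chromosome 10 (128540064 to 128556107) and *Mlana* on chromosome 19 (29674900 to 29686034). Exons of *Pmel* share 442 bp with *Dgka* and 34 bp with *Cdk2*, and those of *Mc1r* share 653 bp with *Gm38092*, *Mitf* 103 bp with *Gm66437* and *Kit* 10 bp with *Gm72966*, all on the opposite strand. The libraries were stranded, but the strand setting of the counting was not given in the sources used here.

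Per kb of exon sequence, *Pmel*, *Tyrp1*, *Dct* and *Mlana* were read well above the lineage genes, while *Tyr* and *Slc45a2* were not. In untreated WT cells *Pmel* reached 75.4 ± 11.6 CPM per kb (SD, n = 5) and *Tyrp1* 62.97 ± 7.99, and these neighbours in the order overlapped. *Dct* followed at 24.8 ± 3.42 and *Mlana* at 19.6 ± 3.61 CPM per kb, with a difference of the order of their spread. *Slc45a2* (2.75 ± 0.506), *Sox10* (2.35 ± 0.314), *Tyr* (2.29 ± 0.313) and *Mitf* (1.84 ± 0.288) lay close together, *Kit* stood at 1.07 ± 0.104 and *Mc1r* was lowest at 0.461 ± 0.135 CPM per kb. Tyrosinase, the enzyme that starts pigment synthesis, was thus read at the level of the transcription factors rather than at that of the other enzymes.

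Most pigment genes were lower with IL17A and TNFα, whereas the lineage genes split, with *Mitf* lower, *Kit* higher in WT cells and *Sox10* without a change that passed the test. A gene is said to have changed where edgeR's quasi-likelihood test gave an adjusted p (Benjamini-Hochberg) below 0.1, and to be differentially expressed where it also passed a 1.5-fold change. In WT cells 3 of 10 genes (*Mitf*, *Tyr* and *Slc45a2*) were differentially expressed, all lower, where 5.26% of all tested genes were lower and 8.65% higher by the same rule. By adjusted p alone *Dct* and *Pmel* fell too, which made 5 lower (background 18.0%), and *Kit* rose (background 18.8%). In KO cells 6 of 10 genes were differentially expressed and lower: *Mitf*, *Mc1r*, *Tyr*, *Dct*, *Pmel* and *Slc45a2* (background 4.55% lower and 6.33% higher). *Tyrp1* and *Mlana* fell by adjusted p alone, so that 8 of 10 were lower (background 18.1%) and none higher (background 17.7%). The median log2 fold change of all genes was 0.01 in WT and 0.00 in KO cells.

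**Figure D1:**
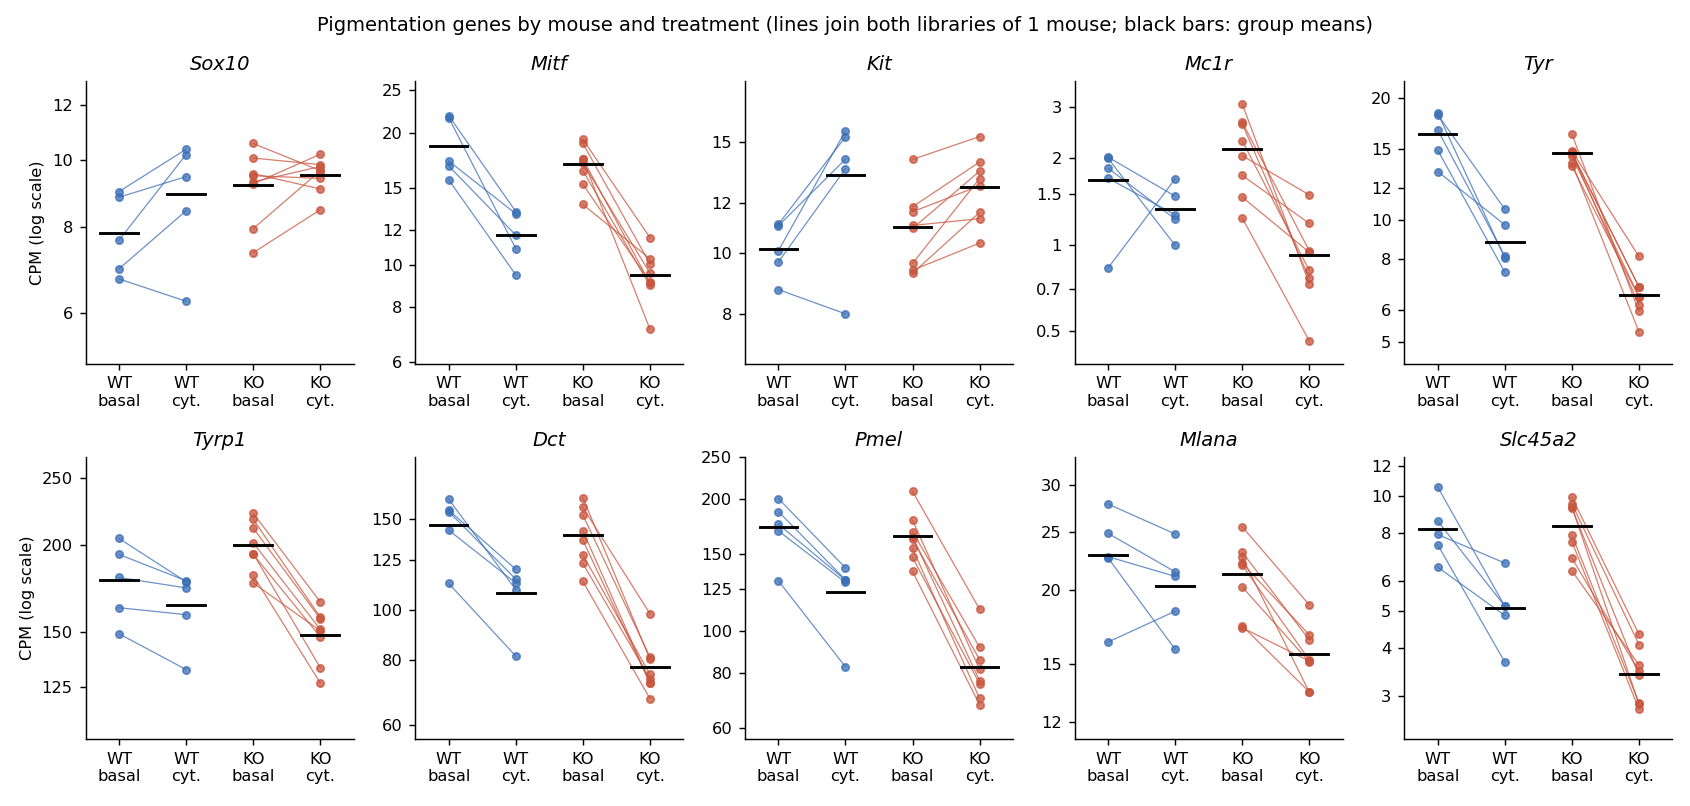
CPM (log scale) of the 10 pigmentation genes in every library, with lines joining the basal and the cytokine-treated (cyt.) library of each of 5 WT (blue) and 8 KO (red) mice and black bars at the group means. The lines of *Mitf*, *Tyr*, *Tyrp1*, *Dct*, *Pmel* and *Slc45a2* slope down in 13 of 13 mice, those of *Kit* slope up in 12, and those of *Sox10* go both ways.

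*Sox10*, the lineage factor upstream of *Mitf*, was read in untreated WT cells at 6.96, 8.83, 6.73, 9.0 and 7.66 CPM for mice 1 to 5, and with cytokines at 8.44, 9.46, 6.25, 10.4 and 10.2 CPM. The ranges overlapped, and 4 of 5 mice were higher with cytokines. In KO cells *Sox10* ranged from 7.34 to 10.6 CPM (median 9.39) without and from 8.47 to 10.2 CPM (median 9.65) with cytokines, with 4 of 8 mice higher. The log2 fold change was 0.19 (SE 0.12, adjusted p = 0.249) in WT and 0.05 (SE 0.09, adjusted p = 0.756) in KO cells, so no change of *Sox10* passed the test.

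*Mitf*, the factor that drives the pigment program, moved the other way. In WT cells it was read at 15.6, 21.7, 17.2, 21.9 and 16.8 CPM without and at 9.47, 10.9, 13.1, 13.2 and 11.7 CPM with cytokines. Every treated library was below every untreated one, a pattern shown in the same direction by 9.99% of all tested genes in WT. In KO cells *Mitf* fell from a range of 13.7 to 19.3 CPM (median 17.2) to one of 7.12 to 11.5 CPM (median 9.34), again without overlap (5.24% of all tested genes in KO). The log2 fold change was -0.68 (SE 0.12, adjusted p = 4.69e-05) in WT and -0.84 (SE 0.10, adjusted p = 3.47e-08) in KO cells.

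*Kit*, the receptor for Kit ligand, was the only one of the 10 genes that rose. WT cells had 8.75, 10.1, 11.1, 9.68 and 11.1 CPM without and 8.01, 15.6, 14.1, 13.6 and 15.3 CPM with cytokines, and the ranges overlapped, with mouse 1 lower and the other mice higher. The log2 fold change in WT was 0.40 (SE 0.14, adjusted p = 0.0325). Without WT mouse 2 or WT mouse 4 the adjusted p was 0.138 or 0.101. In KO cells, where *Kit* ranged from 9.28 to 14.1 CPM (median 11) without and from 10.4 to 15.3 CPM (median 12.96) with cytokines, 8 of 8 mice were higher when treated, but the log2 fold change of 0.21 (SE 0.11, adjusted p = 0.157) did not pass the test. With the mouse as a block, the fit that compares both libraries of the same animal, its adjusted p was 0.0371, it was 0.0955 with the KO libraries alone and 0.0598 without WT mouse 1.

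*Mc1r*, the melanocortin receptor, was the least abundant of the 10 genes, with 22 to 194 counts per library. WT cells had 1.701, 0.830, 1.996, 2.01 and 1.84 CPM without and 1.27, 1.69, 0.995, 1.47 and 1.23 CPM with cytokines, a log2 fold change of -0.33 (SE 0.28, adjusted p = 0.419), with 4 of 5 mice lower and mouse 2 higher. In KO cells it went from a range of 1.24 to 3.08 CPM (median 2.17) to one of 0.464 to 1.49 CPM (median 0.878), lower in 8 of 8 mice with overlapping ranges. Its log2 fold change in KO cells was -1.22 (SE 0.23, adjusted p = 9.94e-05). All 26 counts of *Mc1r* were even numbers, as were 82.0% of all counts between 1 and 9. Of the other members, *Tyr* had 88.5% and *Sox10* 76.9% even counts, and the rest had 42.3% (*Tyrp1*) to 65.4% (*Slc45a2*). Whether both reads of a fragment were counted is not given in the sources used here. If they were, a count is larger than the number of fragments.

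**Figure D2:**
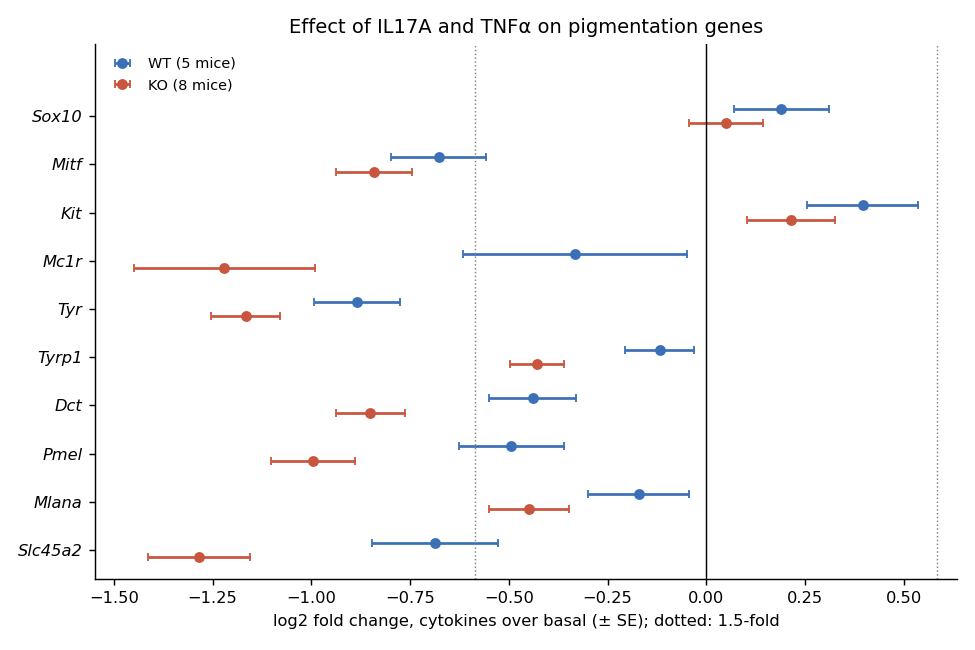
Log2 fold change with cytokines over basal for each of the 10 genes in WT (blue, 5 mice) and KO (red, 8 mice) cells, with the standard error from edgeR as bars and dotted lines at 1.5-fold. *Sox10* and *Kit* sit above 0 in both genotypes, and the other 8 genes lie below 0, from -0.12 for *Tyrp1* in WT to -1.28 for *Slc45a2* in KO cells.

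Of the enzymes, *Tyr* showed the largest fall. WT cells had 13.2, 14.9, 18.4, 16.7 and 18.2 CPM without and 9.74, 7.44, 8.08, 8.15 and 10.7 CPM with cytokines, and all treated libraries lay below all untreated ones. KO cells went from a range of 13.6 to 16.3 CPM (median 14.7) to one of 5.305 to 8.14 CPM (median 6.47), also without overlap. The fall was 1.85-fold in WT, a log2 fold change of -0.88 (SE 0.11, adjusted p = 1.83e-07), and 2.24-fold in KO cells, a log2 fold change of -1.17 (SE 0.09, adjusted p = 9.56e-12).

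*Dct* was read at 113, 156, 143, 164 and 155 CPM in untreated and at 81.5, 120.0, 113, 109.6 and 115 CPM in treated WT cells. Its WT ranges overlapped only through mouse 1, which was lowest under both conditions, and 5 of 5 mice went down. In KO cells *Dct* fell from a range of 114 to 165 CPM (median 139.6) to one of 67.5 to 98.5 CPM (median 74.5), without overlap. The log2 fold change was -0.44 (SE 0.11, adjusted p = 0.00243) in WT, under 1.5-fold, and -0.85 (SE 0.09, adjusted p = 5.97e-09) in KO cells.

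*Tyrp1* was the enzyme with the smallest difference. WT cells had 149, 194, 163, 205 and 179.8 CPM without and 132, 178, 159, 177 and 174 CPM with cytokines, and the log2 fold change of -0.12 (SE 0.09, adjusted p = 0.331) did not pass the test although 5 of 5 mice were lower. With the mouse as a block its adjusted p in WT was 0.0415, for a fall by 0.12 on the log2 scale. In KO cells *Tyrp1* fell from a range of 177 to 223 CPM (median 198) to one of 127 to 166 CPM (median 151), without overlap, a log2 fold change of -0.43 (SE 0.07, adjusted p = 1.1e-05) that stayed under 1.5-fold. The per kb ratio of *Tyr* to *Tyrp1* had a median of 0.0352 without and 0.0202 with cytokines in WT, and of 0.0290 and 0.0174 in KO cells, with no overlap between treated and untreated libraries of a genotype. How often ratios of other genes separate in this way was not computed.

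Among the melanosome genes, *Pmel* went from 130.3, 201, 169.5, 188 and 176 CPM to 82.8, 139.5, 129, 131 and 131 CPM in WT cells. Mouse 1 was again lowest under both conditions, and the ranges overlapped only through its untreated library. KO cells fell from a range of 137 to 209 CPM (median 163) to one of 67.9 to 112 CPM (median 79.4), without overlap. The log2 fold change was -0.49 (SE 0.13, adjusted p = 0.00457) in WT and -0.996 (SE 0.11, adjusted p = 1.08e-08) in KO cells.

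*Slc45a2*, the melanosomal transporter, had 7.46, 6.52, 7.94, 10.6 and 8.603 CPM in untreated and 3.69, 4.88, 6.69, 5.16 and 5.16 CPM in treated WT cells, lower in 5 of 5 mice, with ranges that overlapped by the treated library of mouse 3. In KO cells it fell from a range of 6.38 to 9.94 CPM (median 8.61) to one of 2.78 to 4.36 CPM (median 3.44), without overlap. The log2 fold change was -0.69 (SE 0.16, adjusted p = 0.00124) in WT and -1.28 (SE 0.13, adjusted p = 3.67e-09) in KO cells, the latter the largest fall of the 10 genes in KO cells. Without WT mouse 4 the WT change was -0.58 (adjusted p = 0.0143), just under 1.5-fold.

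*Mlana* differed least of the melanosome genes, with 16.4, 22.7, 22.6, 27.8 and 24.9 CPM in untreated and 18.4, 21.1, 15.9, 24.8 and 21.4 CPM in treated WT cells and a log2 fold change of -0.17 (SE 0.13, adjusted p = 0.342). In KO cells it went from a range of 17.3 to 25.5 CPM (median 22.1) to one of 13.5 to 18.9 CPM (median 15.2), lower in 8 of 8 mice with overlapping ranges, a log2 fold change of -0.45 (SE 0.10, adjusted p = 0.000902).

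Set against *Sox10* in the same library, *Tyr* was lower with cytokines in both genotypes, *Dct* and *Tyrp1* had lower medians, without overlap in KO and with overlap in WT cells, and *Kit* had higher medians. The ratio of *Tyr* to *Sox10* per kb had a median of 0.888 in untreated and 0.490 in treated WT cells, and of 0.737 and 0.333 in KO cells, without overlap in either genotype. The ratio of *Dct* to *Sox10* went from a median of 10.3 to 6.38 in WT, where the untreated minimum of 9.15 lay below the treated maximum of 10.2, and from 8.49 to 4.53 in KO cells. That of *Tyrp1* to *Sox10* went from 26.8 to 20.2 in WT, where 1 of 5 mice rose and the treated maximum of 29.95 lay above the untreated maximum of 28.5, and from 25.95 to 18.4 in KO cells. That of *Kit* to *Sox10* had medians of 0.442 without and 0.528 with cytokines in WT, and of 0.428 and 0.463 in KO cells, with overlapping ranges in both. A ratio of this kind does not depend on library size and shows unequal change, not that *Sox10* itself did not change. How many of all tested genes have ratio ranges that separate in this way was not computed, so the separation is only described.

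Within mice, the log2 change of *Tyr* relative to *Sox10* was -1.06 ± 0.21 (SD, n = 5) in WT and -1.23 ± 0.24 (SD, n = 8) in KO cells. The change relative to *Sox10* was negative in 8 of 8 KO mice for *Mitf*, *Mc1r*, *Tyr*, *Tyrp1*, *Dct*, *Pmel*, *Mlana* and *Slc45a2*, as it was for 10.1% of all tested genes. In WT it was negative in 5 of 5 mice for *Mitf*, *Tyr*, *Dct*, *Pmel*, *Mlana* and *Slc45a2*, as for 24.1% of all tested genes, and in 4 of 5 for *Tyrp1* and *Mc1r*. *Sox10* itself was higher with cytokines in 4 of 5 WT mice (median log2 change 0.20), which lowers every ratio to it. For *Kit* relative to *Sox10* the mean log2 change was 0.19 ± 0.38 (SD, n = 5) in WT and 0.16 ± 0.15 (SD, n = 8) in KO cells. The ratios to *Sox10* were chosen after the values were seen and are a description. A test over mice was run on them, but for that reason its p is not given. *Mitf*, itself a lineage factor, was on the side of the pigment genes, with a change relative to *Sox10* of -0.85 ± 0.32 (SD, n = 5) in WT and -0.90 ± 0.31 (SD, n = 8) in KO cells.

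**Figure D3:**
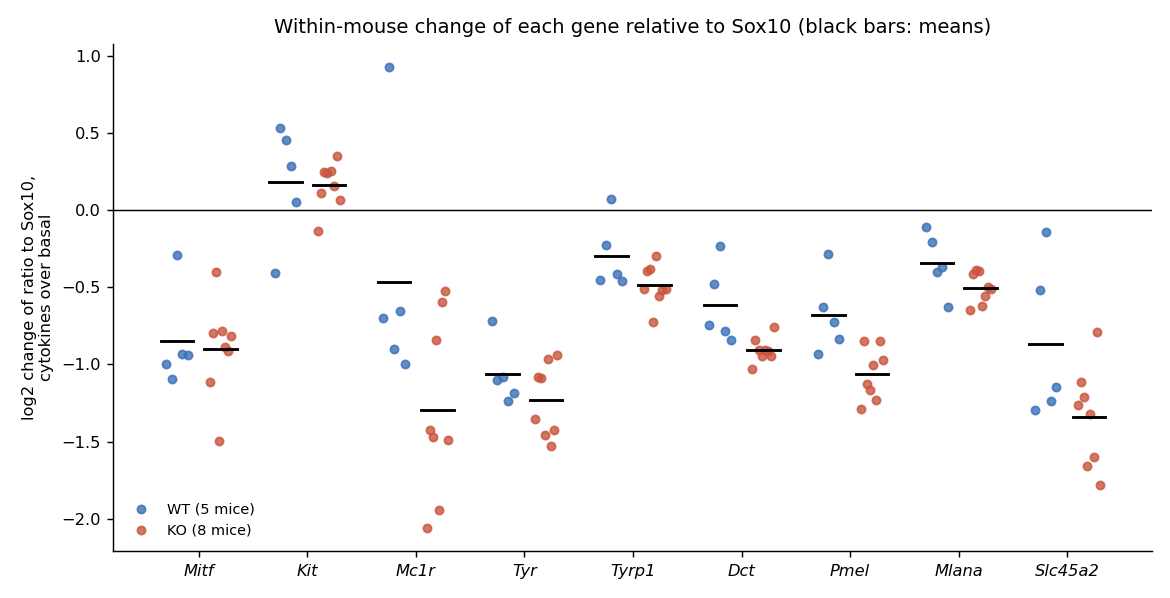
Log2 change, from basal to cytokines, of the per kb ratio of each gene to *Sox10* in each mouse (WT blue, 5 mice; KO red, 8 mice), with black bars at the means. All points of *Mitf*, *Tyr*, *Dct*, *Pmel*, *Mlana* and *Slc45a2* lie below 0, and the means of *Kit* lie at 0.19 in WT and 0.16 in KO cells.

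Between untreated KO and WT cells no difference of the 10 genes passed the test. No gene had an adjusted p under 0.1 (background 7.57% higher and 6.06% lower by adjusted p, and 1.61% higher and 1.07% lower with the 1.5-fold threshold). *Tyrp1* (0.17, SE 0.08, adjusted p = 0.195) and *Sox10* (0.23, SE 0.11, adjusted p = 0.206) had unadjusted p of 0.0401 and 0.0439, the only 2 below 0.05 in edgeR's test, and DESeq2 also gave no adjusted p under 0.1. The log2 fold changes of *Tyr* (-0.15), *Dct* (-0.06), *Pmel* (-0.06) and *Slc45a2* (0.03) had standard errors of 0.097 to 0.14, which bounds how small a difference these mice could show.

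With cytokines the KO cells held less of several pigment transcripts than WT cells. *Dct*, *Tyr*, *Pmel*, *Slc45a2* and *Mlana* were lower by adjusted p (5 of 10, background 1.62% lower and 1.22% higher), but none passed 1.5-fold (background 0.556% lower and 0.148% higher). The 5 are a pigment enzyme pair and all melanosome genes, and no lineage gene was among them. The KO and WT ranges of each of the 10 genes overlapped.

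*Dct* averaged 108 ± 15.2 CPM (SD, n = 5) across treated WT cultures, against 77.6 ± 9.54 CPM (SD, n = 8) across treated KO cultures, a log2 fold change of -0.47 (SE 0.10, adjusted p = 0.0168). *Pmel* averaged 123 ± 22.6 CPM (SD, n = 5) against 82.8 ± 14.2 CPM (SD, n = 8), a log2 fold change of -0.57 (SE 0.12, adjusted p = 0.0168), and *Tyr* 8.81 ± 1.33 CPM (SD, n = 5) against 6.53 ± 0.824 CPM (SD, n = 8), a log2 fold change of -0.43 (SE 0.10, adjusted p = 0.0259). For *Dct* and *Pmel* the overlap came from WT mouse 1, the lowest treated WT library, together with KO mouse 8, the highest treated KO library, and for *Pmel* also from KO mice 2 and 7. Without WT mouse 1 the difference of *Pmel* was -0.67 (adjusted p = 0.000329) and passed 1.5-fold, as it did without KO mouse 7 (-0.59) or KO mouse 8 (-0.63).

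*Slc45a2* averaged 5.11 ± 1.07 CPM (SD, n = 5) across treated WT cultures, against 3.44 ± 0.583 CPM (SD, n = 8) across treated KO cultures, a log2 fold change of -0.57 (SE 0.14, adjusted p = 0.0484). *Mlana* averaged 20.3 ± 3.35 CPM (SD, n = 5) against 15.6 ± 1.79 CPM (SD, n = 8), a log2 fold change of -0.38 (SE 0.11, adjusted p = 0.0923). These differences were less firm: with the mouse as a block the adjusted p was 0.116 for *Slc45a2* and 0.109 for *Mlana*, which left 3 genes (background 1.55% lower in that fit). The adjusted p of *Slc45a2* was over 0.1 without WT mouse 3 (0.198), 4 (0.109) or 5 (0.11) or KO mouse 6 (0.111), and its fold passed 1.5 without WT mouse 1 (-0.66) or 2 (-0.59) or KO mouse 2 (-0.63) or 3 (-0.61). That of *Mlana* was over 0.1 without WT mouse 2, 3, 4 or 5 or any one of KO mice 1 to 7 (0.102 to 0.282), without the filter on low counts (0.104) and with limma on the deposited log2 values (0.111). That of *Tyr* was over 0.1 only without WT mouse 5 (0.109).

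The lineage genes *Sox10* (0.09, SE 0.11, adjusted p = 0.779), *Kit* (-0.06, SE 0.13, adjusted p = 0.882), *Mitf* (-0.30, SE 0.11, adjusted p = 0.165) and *Mc1r* (-0.54, SE 0.26, adjusted p = 0.322) and the enzyme *Tyrp1* (-0.14, SE 0.08, adjusted p = 0.397) did not pass the test between genotypes with cytokines. *Mitf* had an adjusted p of 0.0349 without WT mouse 1 and of 0.0738 without KO mouse 8, and *Tyrp1* of 0.0661 without WT mouse 1.

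**Figure D4:**
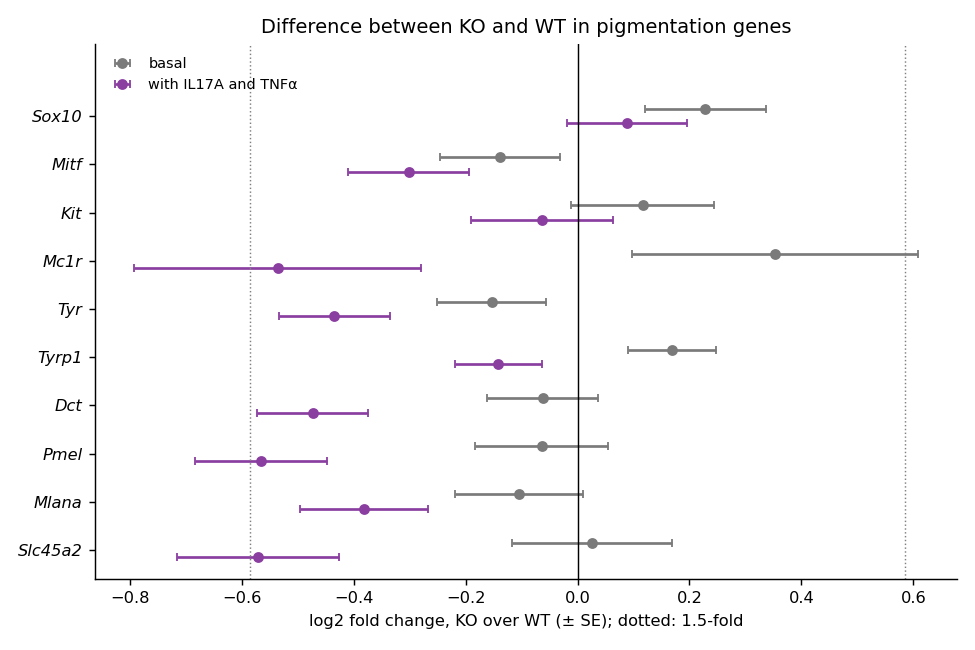
Log2 fold change of KO over WT for the 10 genes under basal conditions (grey) and with IL17A and TNFα (purple), with standard errors from edgeR and dotted lines at 1.5-fold. With cytokines *Dct*, *Tyr*, *Pmel*, *Slc45a2* and *Mlana* lie between -0.57 and -0.38, and the basal values of all 10 genes lie between -0.15 and 0.35.

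Whether the response to cytokines differed between genotypes was tested as an interaction. Its log2 value was negative for all 10 genes, and all 10 share the same libraries. In the fit of the 4 groups none passed the test (background 0.781% lower by adjusted p and 0.184% with 1.5-fold), while *Dct*, *Tyrp1*, *Pmel*, *Slc45a2* and *Mc1r* had an unadjusted p under 0.05 (0.00612 to 0.0208), and DESeq2 also passed none. The largest were *Pmel* (-0.501, SE 0.17, adjusted p = 0.267), *Slc45a2* (-0.60, SE 0.20, adjusted p = 0.269) and *Mc1r* (-0.89, SE 0.36, adjusted p = 0.403). With the mouse as a block, which removes the level of each animal, 3 genes passed by adjusted p: *Pmel* at -0.50 (adjusted p = 0.000188), *Dct* at -0.41 (adjusted p = 0.00162) and *Tyrp1* at -0.31 (adjusted p = 0.00415), none over 1.5-fold (background 2.07% lower by adjusted p in that fit). *Pmel* also had an adjusted p of 0.0782 without WT mouse 1 in the fit of the 4 groups.

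Within mice, *Dct* fell by 0.34 to 0.58 on the log2 scale in WT and by 0.68 to 1.04 in KO cells, *Pmel* by 0.39 to 0.65 and by 0.88 to 1.14, and *Tyrp1* by 0.03 to 0.21 and by 0.23 to 0.55. For these 3 genes the falls of the 5 WT and of the 8 KO mice did not overlap, where 0.906% of all tested genes had every KO mouse below every WT mouse. The WT and KO ranges of the within-mouse change overlapped for *Tyr*, *Mitf*, *Mlana*, *Slc45a2*, *Mc1r*, *Kit* and *Sox10*.

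Other genes listed for the pigment cell moved in both directions. Bulk RNA does not show which cells their transcripts came from, so this does not show that melanocytes themselves moved both ways. Of 18 further genes of melanocyte identity, melanosomes and melanosome transport, 3 were higher and 5 lower in WT and 3 higher and 8 lower in KO cells with cytokines (1.5-fold), at a median log2 fold change of -0.37 and -0.39. Among all tested genes 8.65% were higher and 5.26% lower in WT, and 6.33% and 4.55% in KO cells. By adjusted p alone 6 rose and 7 fell in WT (background 18.8% and 18.0%), and 6 rose and 10 fell in KO cells (background 17.7% and 18.1%). *Oca2*, the melanosomal anion channel gene of oculocutaneous albinism, had 7.61 ± 1.44 CPM without and 3.16 ± 0.568 CPM with cytokines in WT (SD, n = 5), log2 fold changes of -1.27 (SE 0.18, adjusted p = 2.05e-06) in WT and -1.84 (SE 0.15, adjusted p = 3.65e-11) in KO cells. *Trpm1*, a cation channel gene and MITF target, had log2 fold changes of -0.94 (SE 0.21, adjusted p = 0.000808) in WT and -1.496 (SE 0.17, adjusted p = 4.36e-08) in KO cells. *Slc24a4*, a potassium-dependent sodium/calcium exchanger gene, fell in KO cells, with a log2 fold change of -2.07 (SE 0.24, adjusted p = 6.96e-08), and had -0.55 (SE 0.29, adjusted p = 0.164) in WT.

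Among the genes that rose was *Rab32*, a small GTPase of melanosome biogenesis that other cells also use, which averaged 44.1 ± 5.12 CPM in untreated and 162 ± 13.1 CPM in treated WT cultures (SD, n = 5), with log2 fold changes of 1.88 (SE 0.09, adjusted p = 1.67e-15) in WT and 1.46 (SE 0.07, adjusted p = 8.46e-16) in KO cells. *Mlph*, melanophilin, which links melanosomes to myosin Va, had log2 fold changes of 1.06 (SE 0.14, adjusted p = 4.35e-07) in WT and 0.90 (SE 0.11, adjusted p = 1.09e-07) in KO cells. *Rxrg*, a retinoid receptor gene, was near 0 without cytokines (0.0397 ± 0.0545 CPM for WT, 0.00483 ± 0.0137 CPM for KO) and averaged 0.360 ± 0.0909 and 0.828 ± 0.352 CPM with them, too few counts to size its fold. Of 21 genes of lysosome-related organelle assembly (HPS, BLOC-1 and AP-3 subunits and others), none was differentially expressed in any comparison, and by adjusted p 1 rose and 5 fell in WT and 2 rose and 6 fell in KO cells. The shares that fell were above the 18.0% and 18.1% of all tested genes, and those that rose were below 18.8% and 17.7%.

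**Figure D5:**
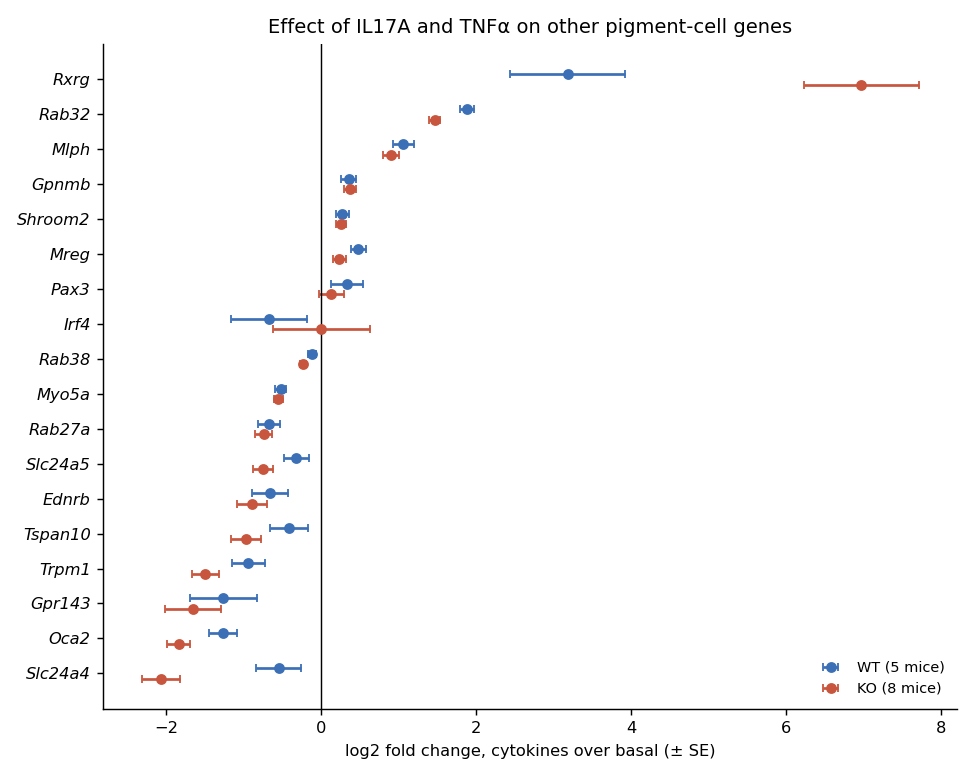
Log2 fold change with cytokines over basal of 18 other pigment-cell genes in WT (blue, 5 mice) and KO (red, 8 mice) cells, with standard errors from edgeR. *Oca2*, *Trpm1* and *Slc24a4* lie low in KO cells (-1.84, -1.496 and -2.07), *Rab32* and *Mlph* lie above 0 in both genotypes, and *Rxrg*, near 0 CPM in untreated cells, has wide bars.

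Between genotypes with cytokines, 3 of the 18 genes were lower in KO cells over 1.5-fold: *Trpm1* (-1.001, SE 0.19, adjusted p = 0.0101), *Slc24a4* (-1.14, SE 0.27, adjusted p = 0.0322) and *Oca2* (-0.61, SE 0.16, adjusted p = 0.0638), and none was higher (background 0.556% lower and 0.148% higher). By adjusted p 6 of the 18 were lower (background 1.62%). *Slc24a4* did not pass without WT mouse 5 (adjusted p = 0.134). *Oca2* did not pass with the mouse as a block (adjusted p = 0.266) or without WT mouse 3, 4 or 5 or KO mouse 1, 2, 3, 5 or 6. In untreated cells only *Rxrg*, near 0 CPM, was differentially expressed, a call lost in 15 of 22 alternatives. The interaction of *Slc24a4* was -1.52 (SE 0.38, adjusted p = 0.0632), and it did not pass without any one of WT mice 1, 2, 3 and 5 and KO mice 1, 3 and 5, without the filter on low counts or with limma on the deposited log2 values.

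Of 13 genes for signals from keratinocytes to melanocytes and their regulators, 9 were tested, of which 2 were higher over 1.5-fold with cytokines in WT and 2 in KO cells (background 8.65% and 6.33%). *Edn1*, endothelin 1, which stimulates melanocytes through the endothelin B receptor, averaged 23.8 ± 4.38 CPM in untreated and 69.1 ± 7.15 CPM in treated WT cultures (SD, n = 5), against 47.6 ± 7.54 and 78.2 ± 8.19 CPM in the KO cultures (SD, n = 8). Its log2 fold change was 1.54 (SE 0.12, adjusted p = 3.11e-11) in WT and 0.72 (SE 0.09, adjusted p = 4.34e-07) in KO cells, the interaction was -0.82 (SE 0.15, adjusted p = 0.0059), and untreated KO cells were above untreated WT cells (1.002, SE 0.11, adjusted p = 4.96e-07). *Csf2*, GM-CSF, rose from 0.0668 ± 0.0736 to 3.23 ± 1.02 CPM (WT) and from 0.0978 ± 0.143 to 3.704 ± 0.732 CPM (KO), with log2 fold changes of 5.47 (SE 0.74, adjusted p = 7.92e-07) and 5.23 (SE 0.56, adjusted p = 1.34e-08). *Bmp2*, a bone morphogenetic protein gene, fell in KO cells (-1.09, SE 0.23, adjusted p = 0.000429). *Kitl*, the gene for Kit ligand, named here because *Kit* is one of the 10 genes, fell under 1.5-fold in WT (-0.41, SE 0.12, adjusted p = 0.00767) and had -0.18 (SE 0.09, adjusted p = 0.143) in KO cells.

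Some of the 10 genes are also used by other cells, so markers of those cells were read beside them. *Kit* and *Mitf* are used by mast cells, whose 10 markers summed to 0 to 0.512 CPM per library, with *Cpa3*, *Tpsb2*, *Ms4a2*, *Fcer1a* and *Mrgprb1* at 0 in every library. *Sox10* is used by Schwann cells. Of their 10 markers, which summed to 195 to 281 CPM, *Erbb3* made up 128 to 144 CPM and *Mbp* 66.0 to 98.4 CPM as group means. *Foxd3* (1.48, SE 0.39, adjusted p = 0.00401 in WT and 1.27, SE 0.30, adjusted p = 0.00128 in KO cells), *Ngfr* (2.53, SE 0.74, adjusted p = 0.00888 and 1.42, SE 0.53, adjusted p = 0.0434) and *Mbp* (0.49, SE 0.07, adjusted p = 1.54e-06 and 0.45, SE 0.05, adjusted p = 1e-07) rose with cytokines. By adjusted p, 4 of the 9 Schwann cell markers tested rose in WT and 4 in KO cells (background 18.8% and 17.7%). None fell in WT and 1 fell in KO cells (background 18.0% and 18.1%). The marker that fell was *Egr2* (-0.79, SE 0.27, adjusted p = 0.0244 in KO, against 0.58, SE 0.33, adjusted p = 0.201 in WT cells). *Foxd3* and *Ngfr* are also expressed by immature cells of the neural crest lineage, and their part in the values of *Sox10* and *Kit* was not tested. Summed markers reached 3.06 to 12.7 CPM for fibroblasts, 0.871 to 5.81 CPM for immune cells and 2.09 to 7.17 CPM for endothelial cells, the last higher with cytokines.

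The non-member genes whose deviations from the group means were most like those of the 6 pigment genes (*Tyr*, *Tyrp1*, *Dct*, *Pmel*, *Mlana* and *Slc45a2*, as a mean of standardized values) were *Mgll*, *Gpnmb*, *Slc24a5*, *Stx3*, *Gm13409*, *Hadha*, *Lce3b*, *Fbrs*, *Tnpo2* and *Tprgl*, with Pearson r from 0.842 to 0.775 over 26 libraries. This is a description over libraries that share mice. *Mgll*, monoglyceride lipase, had log2 fold changes of -0.58 (adjusted p = 0.000645) in WT and -1.05 (adjusted p = 1.58e-09) in KO cells with cytokines, and of -0.53 (adjusted p = 0.019) between genotypes with cytokines. *Slc24a5*, a melanosomal exchanger gene, was among the 18 other pigment-cell genes, with -0.32 (SE 0.16, adjusted p = 0.132) in WT and -0.75 (SE 0.13, adjusted p = 2.55e-05) in KO cells. *Gpnmb*, a relative of *Pmel*, followed the pigment genes from library to library within groups but rose with cytokines, with log2 fold changes of 0.35 (SE 0.09, adjusted p = 0.00449) in WT and 0.37 (SE 0.07, adjusted p = 0.000245) in KO cells. The same r was 0.50 for *Sox10*, 0.59 for *Kit* and 0.59 for *Mitf*, and -0.18 for *Mc1r*. By r *Mitf* ranked 501, *Kit* 509 and *Sox10* 1079 among the 16893 tested genes, so many other genes followed the mean more closely. Among the 6 genes that make up the mean r was 0.93 for *Dct*, 0.83 for *Tyrp1*, 0.83 for *Pmel* and 0.82 for *Mlana*. For *Slc45a2* it was 0.54, under *Kit* and *Mitf*, and for *Tyr* 0.45, under *Sox10*, *Kit* and *Mitf*.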

How the data were processed

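RNA of 26 libraries from 13 mice was sequenced as stranded paired reads. Per the labels and the methods, the authors aligned the reads with STAR 2.7.10b to mm39, counted them per gene with featureCounts 2.0.6 and the GENCODE vM31 annotation, and deposited raw counts without normalization. They also deposited log2 values of the normalized counts, used here only in an alternative. No column was left unmapped.

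Genes with a mean normalized count over 10 were fitted with edgeR 4.0.16 in R 4.3.3 (TMM, quasi-likelihood, 1 model of the 4 groups, no covariate) and adjusted by Benjamini-Hochberg over 16893 genes. An adjusted p under 0.1 and a fold over 1.5, the thresholds of the study, gave differential expression. The study used DESeq2, run here (1.42.0) as an alternative. The procedure was tested on simulated counts.

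The 10 genes and all lists were chosen with earlier results of these data known. Named were all 10, up to 6 genes per other list (smallest adjusted p among those called in any comparison), the 10 genes most alike, and *Pla2g4d*. *Kitl*, the ratios to *Sox10* and the individual Schwann cell markers were chosen after their values were seen. Some genes of the lists are not reported here. Positions are from GRCm39 with GENCODE vM39, promoters from RefSeq (GRCm38.p6), which matched *Tyr*, *Tyrp1*, *Dct*, *Kit*, *Mitf* and *Mc1r*, 6 of the 10.

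Replicate numbers in the sample titles pair the libraries. The methods say that animals were handled individually and do not state which libraries share a mouse. All within-mouse values and the block fits rest on that pairing. The correlation of deviations between both libraries of a mouse ran from 0.000509 to 0.254, with a median of 0.106. The block fit had the mouse as a fixed factor in edgeR, or as a random block in limma 3.58.1 (voom, consensus correlation 0.143) for genotype effects. Other alternatives were DESeq2 size factors, no filter, filterByExpr, only the groups compared, other thresholds, limma on the deposited log2 values and each mouse left out in turn. Libraries held 42072745 to 78102858 counts. No 2 libraries of a group agreed within sampling noise (lowest chi-square per degree of freedom 7.22). Batches and litters were not given in the sources used here. Because the KO mice were bred as homozygotes, KO and WT pups were not littermates. A difference between genotypes therefore cannot be told apart from one between litters.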

Additional observations from a re-analysis of the deposited data

Results flagged for a closer look

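Single libraries stood apart from their group in 6 of 40 gene and group combinations, by the gap to the nearest library relative to the range of the group (Dixon's ratio), where chance alone flags about 1 in 20. WT mouse 1 with cytokines was lowest for *Kit* (8.01 CPM), *Dct* (81.5 CPM) and *Pmel* (82.8 CPM). WT mouse 2 without cytokines was lowest for *Mc1r* (0.830 CPM), KO mouse 7 without cytokines was highest for *Tyr* (16.3 CPM), and KO mouse 8 with cytokines was highest for *Dct* (98.5 CPM).

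The response to cytokines differed between genotypes by the interaction test with the mouse as a block for *Pmel* (-0.50), *Dct* (-0.41) and *Tyrp1* (-0.31), and by the test without a block for *Edn1* (-0.82) and *Slc24a4* (-1.52), all on the log2 scale. In edgeR's test without a block *Pmel*, *Dct* and *Tyrp1* did not pass (adjusted p = 0.267, 0.269 and 0.301). The block rests on the pairing taken from the titles. The call of *Slc24a4* was lost in 10 of 21 alternatives.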

How the results depend on the processing

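With cytokines 3 pigmentation genes were differentially expressed for WT and 6 for KO, and 0 between genotypes and for the interaction, and these counts held with the mouse as a replicate block (3 and 6 in WT and KO), with DESeq2 or its size factors, with filterByExpr or no filter, with limma on the deposited log2 values, at an adjusted p of 0.05 and, but for the interaction, with other groups left out of the fit. Without a threshold on the fold the count was 6 in WT with cytokines and 5 between genotypes with cytokines. Leaving out each mouse gave 2 to 3 in WT, 6 in KO and 0 to 2 between genotypes with cytokines. By adjusted p alone, the replicate block gave 3 genes between genotypes with cytokines in place of 5, and 3 for the interaction in place of 0, and each mouse left out gave 2 to 7 and 0 to 1. The replicate block changed no other count by over 1.5 times. Directions turned only for differences near 0: with each mouse left out, the log2 difference between genotypes ranged from -0.0464 to 0.13 for *Slc45a2* in untreated cells, and with cytokines from -0.0151 to 0.15 for *Sox10* and from -0.20 to 0.00129 for *Kit*. The causes were not tested. Counts were lowest for *Mc1r*, at 22 to 194 counts per library.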
